A study of Mus musculus with 27 samples.

Results

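The genes described here are 45 interferon-stimulated antiviral genes of the mouse, chosen by symbol as known members of this program and looked up in the deposited read counts, where they are 45 of 54532 annotated genes. They were measured by RNA sequencing in cultured mixed glia, a mixture of astrocytes, microglia and oligodendrocyte-lineage cells grown from the cortex of newborn C57BL/6 mice and kept 14 days in vitro. All 27 libraries came from cells treated for 24 h, in 9 groups of 3 libraries and 2 experiments that each had an untreated group of its own. Experiment 1 held glia given LPS, IFN-γ and bryostatin, glia given LPS and IFN-γ, glia given LPS and bryostatin, glia given LPS, and untreated glia. Experiment 2 held glia given IL-4 and bryostatin, glia given IL-4, glia given bryostatin, and untreated glia. Doses were 100 ng/mL LPS (a bacterial cell wall product sensed by TLR4), 20 ng/mL IFN-γ (the type II interferon), 20 ng/mL IL-4 (a cytokine of repair and allergy) and 50 nM bryostatin (a macrocyclic lactone that binds protein kinase C). The labels name no mutant allele or transgene, and do not say whether replicate libraries came from separate cultures.

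Interferon-stimulated genes are the effector arm of innate antiviral defence. When TLR4 is engaged by LPS, the adaptor encoded by Ticam1 and the factor Irf3 lead to release of interferon beta, which acts back on the cells through the receptor chains Ifnar1 and Ifnar2. A complex that includes Irf9 then binds the interferon-stimulated response element (ISRE) in the promoters of these genes, whereas the signal of IFN-γ is read at the gamma-activated site (GAS). In the brain, microglia and astrocytes are both known to mount this program.

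The promoter stretches below show what the members do and do not share at the sequence level. Each is 150 bases of RefSeq sequence (GRCm38.p6) that ends at the base before an annotated RefSeq start, written along the gene's own strand. Ifit2 has 2 such starts, of which 1 is shown. Capitals mark the letters GAAANNGAAA, a core of the ISRE, read on either strand (on the opposite strand it reads TTTCNNTTTC), and neighbouring matches may overlap. Isg15, Ifit1 and Oas1g were chosen because they stand among the members with more than 1 match, and Ifit2 and Rsad2 because IFN-γ added most to them.
Ifit2, chr19:34550544-34550693, + strand: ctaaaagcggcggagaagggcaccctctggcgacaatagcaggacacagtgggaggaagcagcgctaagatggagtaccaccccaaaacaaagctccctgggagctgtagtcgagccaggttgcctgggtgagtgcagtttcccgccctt
Rsad2, chr12:26456453-26456602, - strand: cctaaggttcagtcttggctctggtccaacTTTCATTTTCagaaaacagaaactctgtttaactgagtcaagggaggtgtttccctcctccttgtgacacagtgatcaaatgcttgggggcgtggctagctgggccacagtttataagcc
Isg15, chr4:156200819-156200968, - strand: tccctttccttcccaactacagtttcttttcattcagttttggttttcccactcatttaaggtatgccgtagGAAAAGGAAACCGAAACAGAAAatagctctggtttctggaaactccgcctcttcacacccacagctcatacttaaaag
Ifit1, chr19:34640739-34640888, + strand: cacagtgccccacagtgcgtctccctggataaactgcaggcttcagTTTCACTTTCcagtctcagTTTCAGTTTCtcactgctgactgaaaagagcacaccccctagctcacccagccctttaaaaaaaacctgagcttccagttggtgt
Oas1g, chr5:120887614-120887763, - strand: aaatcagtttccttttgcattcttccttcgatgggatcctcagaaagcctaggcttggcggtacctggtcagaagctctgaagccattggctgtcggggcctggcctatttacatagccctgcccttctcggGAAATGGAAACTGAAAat

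RefSeq promoter sequence was matched by symbol for 33 of the 45 members. Of these, 5 had 2 or more annotated starts, and a core in any window of a gene was counted. In the window from 250 bases before to 50 bases after the start, 17 of these 33 (51.5%, Wilson 95% interval 35.2 to 67.5%) held the ISRE core, against 3.99% of 27025 genes. The GAS core, searched as TTCNNNGAA on both strands, stood in 7 of the 33 (21.2%, Wilson interval 10.7 to 37.8%), against 9.55% of the same genes. Ifit2, which has 2 windows, held the GAS core in that of the start shown above and the ISRE core in neither. Oas1a, Eif2ak2, Bst2 and Ifitm3 held both cores. A match of letters is a description and not a shown binding site, and no match says only that these letters are not in the window.

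Before the results, one feature of the untreated libraries needs stating. Pdgfra, the growth factor receptor of oligodendrocyte precursors, stood at 0.401 RPKM in the library labelled untreated replicate 1 of experiment 1, against 14.1 and 16.2 RPKM in replicates 2 and 3. In experiment 2 it stood at 9.03 RPKM in untreated replicate 1, against 0.521 and 0.525 RPKM in replicates 2 and 3. The members divided along the same lines: 45 of 45 were lowest in replicate 1 among the untreated libraries of experiment 1, and 31 of 45 were highest in replicate 1 among those of experiment 2. Across genes, which are not independent replicates, log2 counts per library size in the library labelled untreated replicate 1 of experiment 1 correlated at 0.9908 and 0.9905 with untreated replicates 2 and 3 of experiment 2, and at 0.9638 and 0.9649 with those of its own experiment. Untreated replicate 1 of experiment 2 correlated at 0.9814 and 0.9746 with replicates 2 and 3 of experiment 1, and at 0.9582 and 0.9512 with its own. It is therefore in doubt whether the labels of these libraries were exchanged between the experiments, which was not tested, and the doubt bears on every value set against untreated glia. It also bears on the p-values of the other comparisons, since all groups of an experiment share an estimate of the spread. Labels were kept as given, and the member counts against untreated glia are also given without these replicate 1 libraries. Of the cell types the name of the culture implies, 12 of 12 microglia and 11 of 11 astrocyte markers were tested in both experiments, the summed microglia markers ran from 300 to 1456 RPKM and the summed astrocyte markers from 983 to 3708 RPKM across the libraries, and the lymphocyte and neutrophil markers Cd3e and S100a9 had no count in any library. Summed oligodendrocyte-lineage markers ran from 113 to 406 RPKM and summed fibroblast and mural markers from 448 to 1156 RPKM. Total counts per library ran from 17230058 to 28687281.

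The members' part of the transcriptome followed LPS. In experiment 1 they took 2.36% ± 0.0493 of all counts with LPS, IFN-γ and bryostatin, 2.49% ± 0.0700 with LPS and IFN-γ, 1.61% ± 0.114 with LPS and bryostatin, 1.72% ± 0.0781 with LPS, and 0.125% ± 0.0320 in untreated glia (SD, n = 3 each). Levels per length are given as RPKM, read counts divided by annotated gene length and by library size, scaled with TMM factors over all libraries. The median member stood at 87.8 RPKM with LPS and IFN-γ, at 51.3 RPKM with LPS and at 3.17 RPKM in untreated glia, where 11 of 45 members lay under 1 RPKM. Ifitm3, Bst2, Ifit3 and Isg15 made up 61.3% of the summed member RPKM with LPS and IFN-γ and 66.3% with LPS. In experiment 2 the members took 0.0815% ± 7.2e-04 of counts with IL-4 and bryostatin, 0.0874% ± 0.00255 with IL-4, 0.0866% ± 0.00407 with bryostatin and 0.0980% ± 0.0174 in untreated glia.

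**Figure D1:**
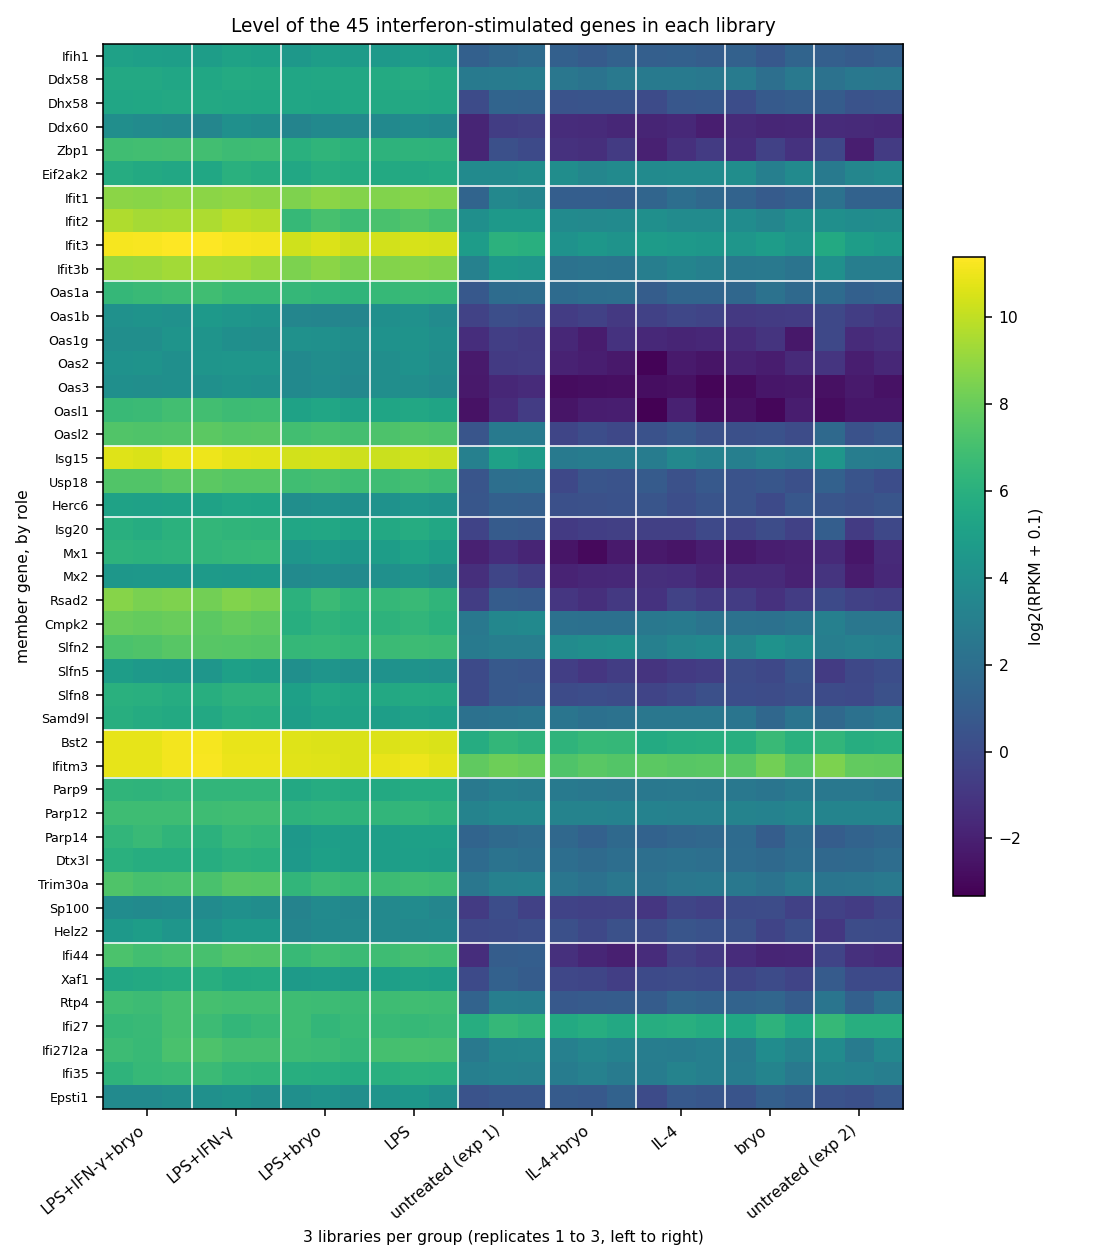
Level of each of the 45 members (rows, by role) in each of the 27 libraries (columns, 3 per group), as log2(RPKM + 0.1). The 12 libraries that received LPS stand apart from the untreated libraries and from all 12 libraries of experiment 2, and Ifi27 differs least between them.

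All 45 members rose with LPS against untreated glia at an adjusted p under 0.05 (edgeR quasi-likelihood test, Benjamini-Hochberg over 16073 genes, used for every adjusted p here), where 19.5% of all genes tested rose. Their median log2 fold change was 4.29, against -0.01 over all genes, and it ran from 0.41 for Ifi27 to 7.27 for Mx1. In bulk RNA, more cells of a type and more RNA per cell cannot be told apart. The summed level of 12 microglia markers was 510 to 554 RPKM with LPS and 803 to 1023 RPKM in untreated glia, where 3 of the 12 rose and 9 fell. The summed astrocyte markers were 1904 to 2036 RPKM with LPS and 2637 to 3409 RPKM in untreated glia, where 2 of 11 rose and 6 fell, and the part of either list in the members' values was not tested.

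Among the sensors of foreign nucleic acid, the 6 log2 fold changes had a median of 3.89. Zbp1, which binds nucleic acid in the left-handed Z form and can start necroptosis, had 73.4, 77.1 and 72.6 RPKM with LPS, against 0.187, 1.11 and 0.898 RPKM in untreated glia, a log2 fold change of 6.67 ± 0.30 (SE, adjusted p = 2.5e-10). Eif2ak2 encodes PKR, the kinase that stops translation on double-stranded RNA, and had 48.7, 47.2 and 51.0 RPKM with LPS, against 12.9, 13.0 and 14.9 RPKM in untreated glia. The LPS libraries lay above the untreated ones for both genes, but the change in Eif2ak2 was the smallest of the sensors at 1.87 ± 0.13 on the log2 scale (adjusted p = 5.8e-09). The helicases Ddx58 (RIG-I), Ifih1 (MDA5), Dhx58 (LGP2, which tunes both) and Ddx60 rose by 2.96, 3.22, 4.55 and 4.89 on the log2 scale.

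The IFIT proteins, which bind viral RNA, lie side by side on chromosome 19, with Ifit2, Ifit3, Ifit3b and Ifit1 in this order and gaps of 7111 to 27469 bases. Ifit3, which in human cells stabilises Ifit1, had the highest level of the family at 1333, 1455 and 1374 RPKM with LPS, against 27.6, 69.5 and 62.5 RPKM in untreated glia (log2 fold change 4.73 ± 0.26, adjusted p = 2.7e-09). Ifit1, which recognises RNA without cap methylation, had 391, 425 and 388 RPKM with LPS, against 2.55, 11.4 and 9.94 RPKM in untreated glia. The change in Ifit2 was smaller, at 145, 170 and 139 RPKM with LPS, against 16.2, 23.6 and 25.3 RPKM in untreated glia. On the log2 scale this was 5.68 ± 0.38 for Ifit1 (adjusted p = 3.3e-08) and 2.83 ± 0.18 for Ifit2 (adjusted p = 3.1e-09). Ifit3 and Ifit3b are close copies of each other, so how reads were divided between them is uncertain.

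The oligoadenylate synthetases make the short adenylate chains that switch on RNase L, and the 7 family members rose by 4.16 to 7.22 on the log2 scale. Oasl2, a relative that carries ubiquitin-like domains, was the most abundant per length, with 158, 167 and 153 RPKM with LPS and 1.37, 6.51 and 6.53 RPKM in untreated glia. Oasl1, which in the mouse holds back translation of Irf7, had 40.9, 45.3 and 38.4 RPKM with LPS, against 0.0634, 0.259 and 0.501 RPKM in untreated glia. Both sets of LPS libraries stood far above the untreated ones, and Oasl1 had the second change of the 45 in size at 7.22 ± 0.26 (adjusted p = 6.1e-12). In the untreated libraries Oasl1 had 3, 13 and 26 counts and Oas2 had 9, 40 and 45. These 2 genes could be tested only because of the groups with LPS. Their rise over untreated glia, with or without IFN-γ, is therefore no separate evidence within the 45. Oas3, Oas2, Oas1g, Oas1a and Oas1b, which lie together on chromosome 5, rose by 6.30, 5.46, 5.31, 5.01 and 4.16, with Oas1a and Oas1g close enough in sequence that reads may be split between them.

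Isg15, a ubiquitin-like protein that is attached to host and viral proteins, had 1210, 1311 and 1214 RPKM with LPS, against 8.46, 33.9 and 26.1 RPKM in untreated glia (log2 fold change 5.79 ± 0.35, adjusted p = 1.2e-08). Replicate 1 was the low one of the untreated libraries, and no LPS library came near them. Usp18, the protease that removes ISG15 and dampens the type I receptor, rose by 5.22, and Herc6, the mouse ligase that attaches ISG15, by 3.35.

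The effectors that act on viral nucleoproteins, nucleotides and RNA held the largest single change. Mx1, a dynamin-like GTPase whose working form traps viral nucleoproteins, had 29.3, 37.5 and 29.0 RPKM with LPS, against 0.160, 0.275 and 0.186 RPKM in untreated glia. This was a log2 fold change of 7.27 ± 0.17 (adjusted p = 3.3e-14). Rsad2 encodes viperin, which makes a nucleotide that ends viral RNA chains, and had 87.7, 99.2 and 80.0 RPKM with LPS, against 0.547, 1.83 and 1.71 RPKM in untreated glia (6.05 ± 0.31, adjusted p = 1.9e-09). Cmpk2, a nucleotide kinase encoded 12751 bases from Rsad2, rose less, by 2.96 ± 0.20 (adjusted p = 2.2e-08). Samd9l, which restricts poxviruses in the mouse, had 30.5, 34.5 and 31.3 RPKM with LPS, against 4.33, 4.85 and 5.17 RPKM in untreated glia, the smallest change of the 9 effectors at 2.77 ± 0.12 (adjusted p = 1.2e-11). The exonuclease Isg20 rose by 5.21, Mx2 by 5.01, and the schlafens Slfn8, Slfn2 and Slfn5, a family tied to growth arrest and tRNA cleavage, by 5.12, 3.87 and 3.79. Mx2 and Oas1b are annotated as polymorphic pseudogenes, and Mx1 and Mx2 may share reads. RNA levels do not show whether a working protein was made, for Mx1 as for these genes.

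The membrane factors were abundant even without LPS. Ifitm3, which keeps viruses from fusing in endosomes, had 1889, 2062 and 1765 RPKM with LPS, against 220, 283 and 249 RPKM in untreated glia (2.95 ± 0.12, adjusted p = 9.5e-12). Bst2 (tetherin), which holds budding virus at the cell surface, had 1544, 1616 and 1513 RPKM with LPS, against 56.3, 84.7 and 74.5 RPKM in untreated glia (4.46 ± 0.14, adjusted p = 4.9e-13). Both reached a similar level with LPS from different untreated levels.

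The regulators of ADP-ribose, ubiquitin and nuclear bodies rose by 2.87 to 4.12, the narrowest range of any role with more than 2 members. Trim30a, a ubiquitin ligase of the TRIM family, had 110, 120 and 109 RPKM with LPS, against 5.51, 8.86 and 9.10 RPKM in untreated glia (3.87 ± 0.17, adjusted p = 5.4e-11). Sp100, a component of nuclear bodies, rose by 4.12, the helicase Helz2 by 3.69, and the ADP-ribosyltransferases Parp14 and Parp12 by 3.34 and 2.93. Parp9 and its ubiquitin ligase partner Dtx3l rose by 2.87 and 2.90. These partners overlap by 682 bases on opposite strands of chromosome 16, so reads from the overlap cannot be assigned to either in unstranded libraries.

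Ifi27, which encodes a small membrane protein, had the smallest change of the 45. It had 96.7, 92.6 and 100 RPKM with LPS, against 57.9, 87.6 and 76.2 RPKM in untreated glia, a log2 fold change of 0.41 ± 0.15 (adjusted p = 0.041). The groups did not overlap, but the lowest LPS library was close to the highest untreated one, and the call was kept in 4 of 13 fits, where adjusted p ran from 0.014 to 0.14. Without the untreated library labelled replicate 1 the value was 0.27 (adjusted p = 0.12), and the other 44 members were still called. Its neighbour Ifi27l2a, 1927 bases away, rose by 3.91 ± 0.18 (adjusted p = 8e-11). In the same group Ifi44 rose by 6.42, the XIAP antagonist Xaf1 by 4.30, Rtp4 by 4.29, Epsti1 by 3.78 and Ifi35, a partner of Nmi, by 2.93. Rtp4 overlaps Masp1 on the opposite strand, which had 13718 counts over all libraries against 52834 for Rtp4.

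**Figure D2:**
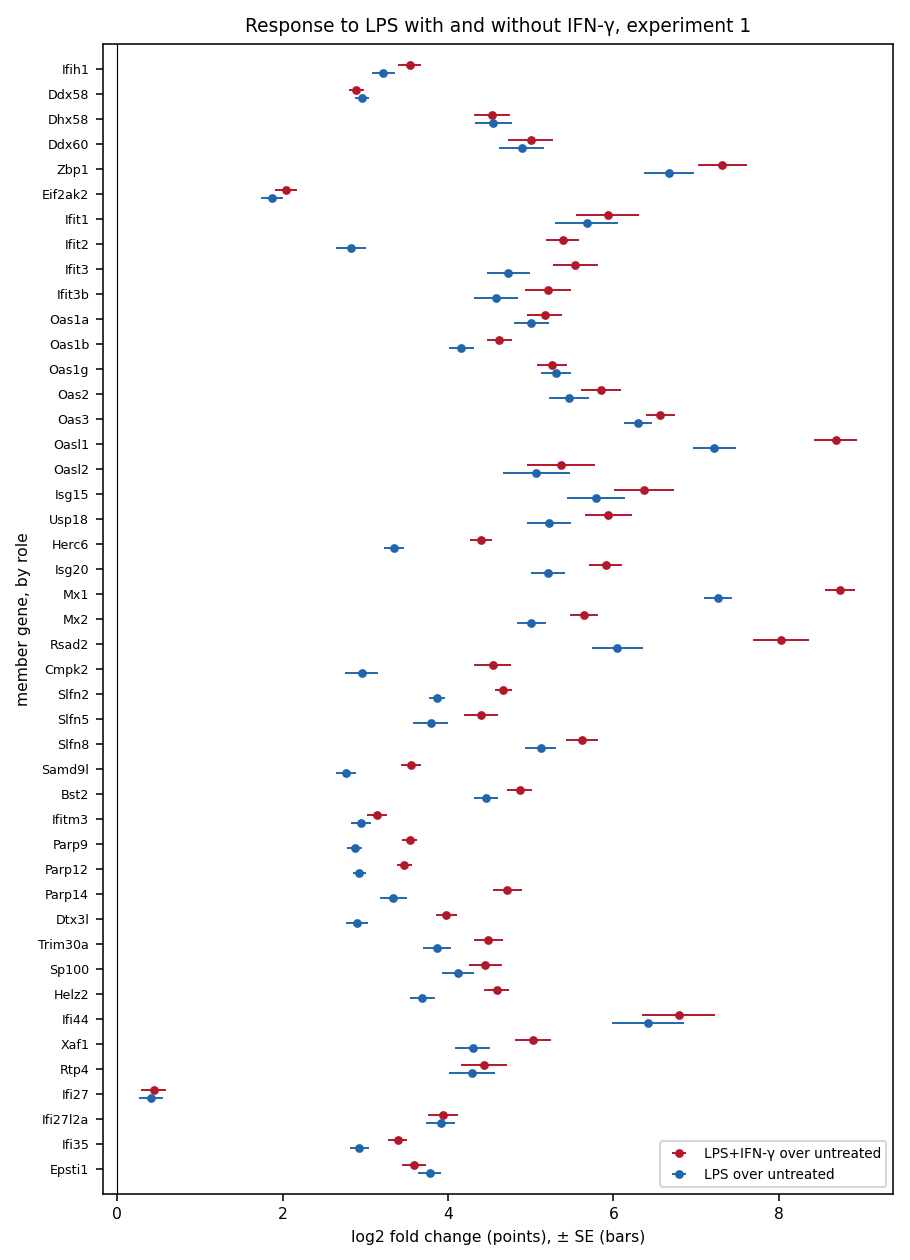
Log2 fold change (points) ± SE (bars) of each member in experiment 1, by role from top to bottom, for LPS and IFN-γ over untreated glia (red) and LPS over untreated glia (blue), 3 libraries per group. Mx1 is at 8.74 and 7.27 and Ifi27 at 0.44 and 0.41, and Ifit2 is at 5.39 and 2.83.

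With LPS and IFN-γ together, 45 of 45 members rose against untreated glia, where 29.5% of all genes tested rose, with a median of 4.72 and a range of 0.44 to 8.74. This comparison shares its untreated libraries with the one above, so their values are only set side by side. The largest were Mx1 at 8.74 ± 0.18, with 81.8, 89.2 and 92.4 RPKM with LPS and IFN-γ, Oasl1 at 8.69 ± 0.26, with 121, 110 and 113 RPKM, and Rsad2 at 8.03 ± 0.34, with 305, 392 and 352 RPKM, against the untreated levels given above. The smallest were Ifi27 at 0.44 ± 0.15 (adjusted p = 0.020), Eif2ak2 at 2.04 ± 0.13 and Ddx58 at 2.89 ± 0.09. Ifi27 had 108, 86.8 and 98.3 RPKM with LPS and IFN-γ, so that its groups overlapped, and it was called in 8 of 13 fits. Without the untreated library labelled replicate 1 it was at 0.30 (adjusted p = 0.066), and the other 44 members were still called. Ddx58 had 44.3, 51.9 and 49.6 RPKM with LPS and IFN-γ, against 6.22, 6.87 and 7.01 RPKM in untreated glia.

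Adding IFN-γ to LPS raised part of the set further. Against LPS, 26 of 45 members rose with LPS and IFN-γ, where 19.2% of all genes tested rose, and 19 did not pass the test. The median log2 fold change was 0.54, against -0.01 over all genes, with 41 values above 0. The groups did not overlap for 35 members, all of them higher with IFN-γ, whereas 25.4% of all genes tested were higher without overlap. All 9 effectors rose (median 0.78), as did 6 of 7 ADP-ribose, ubiquitin and nuclear regulators (median 0.67), 3 of 4 IFIT genes and 2 of 3 genes of the ISG15 system. In the other roles 1 of 6 sensors (median 0.14), 2 of 7 oligoadenylate synthetases (median 0.29), 1 of 2 membrane factors (median 0.30) and 2 of 7 other genes (median 0.14) passed the test, and whether the roles differ was not tested. These counts moved with the fit: with only the compared groups 5 of the 7 synthetases were called, Oas2, Oas3 and Oasl2 with Oas1b and Oasl1, and Ifih1 joined the sensors, whereas the called sensor Zbp1 passed in 6 of 14 fits (adjusted p up to 0.12). Summed microglia markers were 393 to 465 RPKM with LPS and IFN-γ and 510 to 554 RPKM with LPS (1 of 12 rose and 8 fell), and summed astrocyte markers 1353 to 1535 RPKM and 1904 to 2036 RPKM (6 of 11 fell). Summed oligodendrocyte-lineage markers were 113 to 133 RPKM with LPS and IFN-γ and 235 to 239 RPKM with LPS. The part of these 3 lists in the members' values was not tested. Of the 26, 19 were called in every fit, and Bst2, Ifit3, Ifit3b, Slfn5, Slfn8, Usp18 and Zbp1 lost their call in at least 1. The number of members called was 34 with only the compared groups in the fit, 34 without the untreated library labelled replicate 1, and 20 to 24 on leaving out 1 library of either group. The share of all genes called in these fits is not given here, so a moved count is no result about the members.

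Ifit2 changed most. It had 762, 991 and 916 RPKM with LPS and IFN-γ, against 145, 170 and 139 RPKM with LPS, which is 5.92-fold (log2 fold change 2.56 ± 0.17, adjusted p = 2e-08). The groups were far apart, and Ifit2 thus went past Ifit1, which had 464, 505 and 457 RPKM with LPS and IFN-γ, against 391, 425 and 388 RPKM with LPS. For Ifit1 the difference of 0.26 ± 0.30 (95% interval -0.40 to 0.91) did not pass the test (adjusted p = 0.56), although its groups did not overlap, and it passed with only the compared groups in the fit (0.24, adjusted p = 0.014). Ifit3 and Ifit3b rose by 0.81 ± 0.23 (adjusted p = 0.012) and 0.63 ± 0.23 (adjusted p = 0.048). Ifit3 passed in 13 of 14 fits, all but the one without a filter on low counts (adjusted p = 0.056), and Ifit3b in 6 of 14, losing its call on leaving out any 1 library of either group (adjusted p = 0.062 to 0.13).

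Rsad2 and its neighbour Cmpk2 came next. Rsad2 had 305, 392 and 352 RPKM with LPS and IFN-γ, against 87.7, 99.2 and 80.0 RPKM with LPS (3.96-fold, 1.98 ± 0.25, adjusted p = 2.9e-05). Cmpk2 had 207, 244 and 213 RPKM, against 73.5, 83.4 and 66.8 RPKM with LPS (2.99-fold, 1.58 ± 0.19, adjusted p = 1.4e-05). Neither gene's groups overlapped. Mx1 and Oasl1 rose 2.77-fold and 2.78-fold (both 1.47 on the log2 scale, adjusted p = 4.9e-08 and 5.2e-06), Parp14 by 1.38 ± 0.14, Dtx3l by 1.07 ± 0.12, Herc6 by 1.05 ± 0.11 and Helz2 by 0.90 ± 0.13.

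The smallest changes that passed were in Bst2, Ifi35 and Oas1b. Bst2 had 2339, 1902 and 1923 RPKM with LPS and IFN-γ, against 1544, 1616 and 1513 RPKM with LPS (0.41 ± 0.12, adjusted p = 0.017). Ifi35 had 103, 82.2 and 78.3 RPKM, against 61.1, 68.8 and 63.9 RPKM with LPS (0.46 ± 0.11, adjusted p = 0.0039). Oas1b, whose full-length form confers flavivirus resistance in mice, had 23.5, 21.2 and 19.3 RPKM, against 16.2, 17.2 and 13.4 RPKM with LPS (0.46 ± 0.12, adjusted p = 0.0053). Bst2 passed in 10 of 14 fits (adjusted p up to 0.078) and was lost without LPS replicate 1 or 3 or LPS and IFN-γ replicate 1. In all 3 the lowest library with IFN-γ lay above the highest with LPS.

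Several members were close to level between the groups. Ddx58 had 44.3, 51.9 and 49.6 RPKM with LPS and IFN-γ, against 50.3, 54.5 and 49.1 RPKM with LPS, a difference of -0.07 ± 0.08 (95% interval -0.24 to 0.11). Oas1g had 19.2, 15.9 and 15.6 RPKM, against 18.3, 18.6 and 15.7 RPKM with LPS (-0.05 ± 0.13, interval -0.32 to 0.22), and Epsti1 was at -0.19 ± 0.11 (interval -0.43 to 0.05). The libraries of both groups were mingled for these genes. Isg15 had 2050, 1794 and 1680 RPKM with LPS and IFN-γ, against 1210, 1311 and 1214 RPKM with LPS, and its groups did not overlap, but 0.58 ± 0.28 did not pass (adjusted p = 0.13); with only the compared groups in the fit it did (0.56, adjusted p = 1.2e-04). Of the 45 intervals, 25 lay within 2-fold in either direction.

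**Figure D3:**
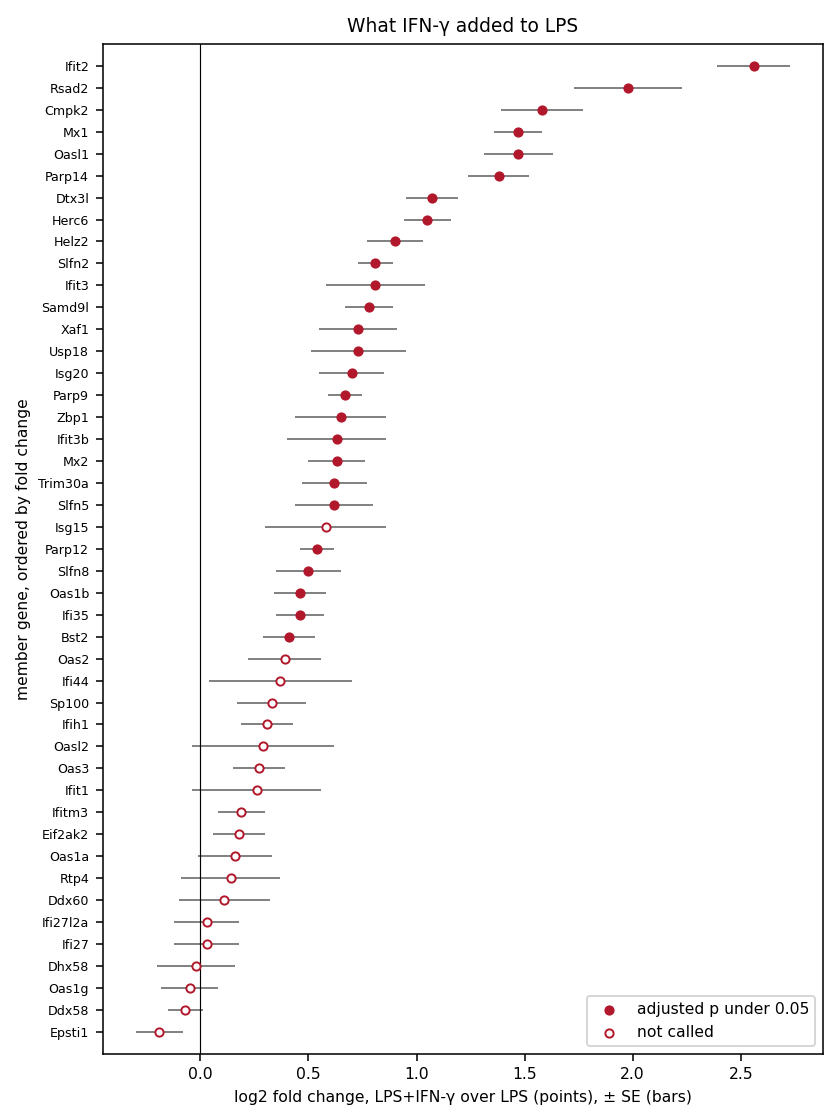
Log2 fold change (points) ± SE (bars) of each member for LPS and IFN-γ over LPS, ordered by size, 3 libraries per group, with filled points for an adjusted p under 0.05. Ifit2 (2.56), Rsad2 (1.98) and Cmpk2 (1.58) lead, and Ddx58 (-0.07) and Epsti1 (-0.19) are at the foot.

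The promoter letters shown at the start can be set beside these changes as a description. The 17 members with the ISRE core had a median log2 fold change of 4.73 with LPS over untreated glia and of 0.31 with LPS and IFN-γ over LPS, and the 16 with a promoter but without the core had 3.73 and 0.76. Both sets spanned wide ranges for the second quantity, -0.07 to 1.98 with the core and -0.19 to 2.56 without. For the GAS core, the 7 members that held it had medians of 2.95 and 0.41, and the 26 without it had 4.21 and 0.60. Members with more than 1 ISRE match ran from Oas1g at -0.05 to Ifit3 at 0.81 with IFN-γ added to LPS, and members with no match from Epsti1 at -0.19 to Ifit2 at 2.56.

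Genes upstream of the members were read out in the same libraries. Interferon beta itself (Ifnb1) had 1.59, 1.78 and 2.35 RPKM with LPS and IFN-γ, 0.605, 0.717 and 0.826 RPKM with LPS, and no count in any untreated library of experiment 1. Its 30 counts with LPS put it at least 10.3-fold higher than untreated, and its 66 counts with LPS and IFN-γ at least 27.3-fold, where the floor is 3 counts over the untreated group. Between LPS with IFN-γ and LPS it differed by 1.41 ± 0.40 on the log2 scale (adjusted p = 0.013). The interferon alpha genes Ifna1, Ifna2, Ifna4 and Ifna5 had at most 1 count in any group. All 5 tested genes of interferons and receptors rose with LPS, among them Ifnar2 by 1.39 ± 0.08 and Ifnar1 by 0.38 ± 0.09, as did 9 of 11 genes of the JAK-STAT signal and its feedback and 7 of 10 of the axis from TLR4 to interferon. Ifnb1, counted among the 5, could be tested only because of the groups with LPS, so its rise over untreated glia is no separate evidence.

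Transcription factors of the pathway also rose. With LPS over untreated glia, Stat2 rose by 3.08 ± 0.14 and Irf9 by 1.81 ± 0.09, and Irf7, the factor that amplifies interferon production, by 6.77 ± 0.29. With IFN-γ added to LPS, Stat2 rose by 0.70 ± 0.13 (adjusted p = 3.9e-04), whereas Irf9 fell by 0.32 (SE 0.09, adjusted p = 0.0098) and Irf7 did not pass at 0.19 ± 0.22 (adjusted p = 0.55). Irf1, a factor that IFN-γ induces directly, had 358, 314 and 351 RPKM with LPS and IFN-γ, against 28.0, 31.0 and 28.5 RPKM with LPS (3.56 ± 0.11, adjusted p = 2e-12). Irf8, a factor of microglia and other myeloid cells, rose by 3.02 ± 0.10 and Socs1, an inhibitor of this signal, by 3.34 ± 0.13.

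A further list of 61 interferon-stimulated genes outside the 45, also written with earlier results of these data known, gave 51 that could be tested. All 51 rose with LPS over untreated glia (median 2.92), and with LPS and IFN-γ over LPS 33 rose, 5 fell and 13 did not pass. Genes with hardly any counts in untreated glia, such as Slfn4 and Slfn1, could be tested only because of the groups with LPS. Their rise over untreated glia is therefore no separate evidence. Slfn4, a schlafen gene with no count in the untreated libraries, had 1240 counts with LPS, at least 424-fold above the floor, and 280 counts with LPS and IFN-γ, at least 116-fold. Against LPS it fell by 1.86 with IFN-γ added (SE 0.24, adjusted p = 4.1e-05), and Slfn1, Ms4a4c, Ifit1bl2 and Ifitm2 also fell. Oas1h and Ifi202b were at 0 in untreated glia and had at most 21 counts in any group of experiment 1.

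Bryostatin added to LPS left the set near its LPS level. Against LPS, 2 of 45 members fell with LPS and bryostatin, where 3.55% of all genes tested fell, and 43 did not pass the test. The median log2 fold change was -0.15 (0.00 over all genes), with 36 of 45 values below 0 and a range of -0.55 to 0.11, and 44 of 45 intervals lay within 2-fold in either direction. The groups did not overlap for 18 members, all of them lower with bryostatin, whereas 19.6% of all genes tested were lower without overlap. Summed microglia markers were 385 to 441 RPKM with LPS and bryostatin and 510 to 554 RPKM with LPS (4 of 12 fell), and summed astrocyte markers 1500 to 1601 RPKM and 1904 to 2036 RPKM (1 of 11 rose and 4 fell). Their part in the members' values was not tested.

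Mx1 and Oas1b were the members that fell. Mx1 had 20.9, 26.3 and 21.6 RPKM with LPS and bryostatin, against 29.3, 37.5 and 29.0 RPKM with LPS, a log2 fold change of -0.46 ± 0.11 (adjusted p = 0.019). Oas1b had 10.7, 10.4 and 10.4 RPKM, against 16.2, 17.2 and 13.4 RPKM with LPS (-0.55 ± 0.12, adjusted p = 0.0088). The groups did not overlap for either, and LPS replicate 2 was the highest library of both. Mx1 was called in 10 of 14 fits, with adjusted p from 3.1e-04 to 0.12, and Oas1b in 13 of 14, from 1.3e-04 to 0.058, and without LPS replicate 2 neither passed. With only the compared groups in the fit 14 members fell, Mx1 and Oas1b with 12 others (Isg20, Mx2, Oas2, Oasl2, Ddx58, Xaf1, Herc6, Ifi27l2a, Ifitm3, Trim30a, Slfn2 and Slfn8), where 11.3% of all genes did. Without the untreated library labelled replicate 1 the number was 6, where 7.06% of all genes fell.

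Some of the other members, such as Oasl2 and Slfn2, were also lower with bryostatin without overlap. For others the LPS libraries with and without bryostatin were mingled. Isg15 had 1352, 1385 and 1240 RPKM with LPS and bryostatin, against 1210, 1311 and 1214 RPKM with LPS (0.11 ± 0.28), and Rsad2 had 70.1, 105 and 79.8 RPKM, against 87.7, 99.2 and 80.0 RPKM (-0.05 ± 0.24). Ifit2 had 92.8, 140 and 110 RPKM, against 145, 170 and 139 RPKM (-0.39 ± 0.16, adjusted p = 0.19). The groups overlapped for all 3. Outside the members, Irf1 fell by 0.61 (SE 0.10, adjusted p = 0.0013), with 17.4, 19.1 and 20.2 RPKM with LPS and bryostatin, against 28.0, 31.0 and 28.5 RPKM with LPS, and Ifngr1, a chain of the IFN-γ receptor, by 0.31 (SE 0.09, adjusted p = 0.042). Of the further interferon-stimulated genes, 4 of 51 fell: Ifitm1 by 1.03, Lgals9 by 0.61, Ube2l6 by 0.46 and Ifitm2 by 0.44.

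**Figure D4:**
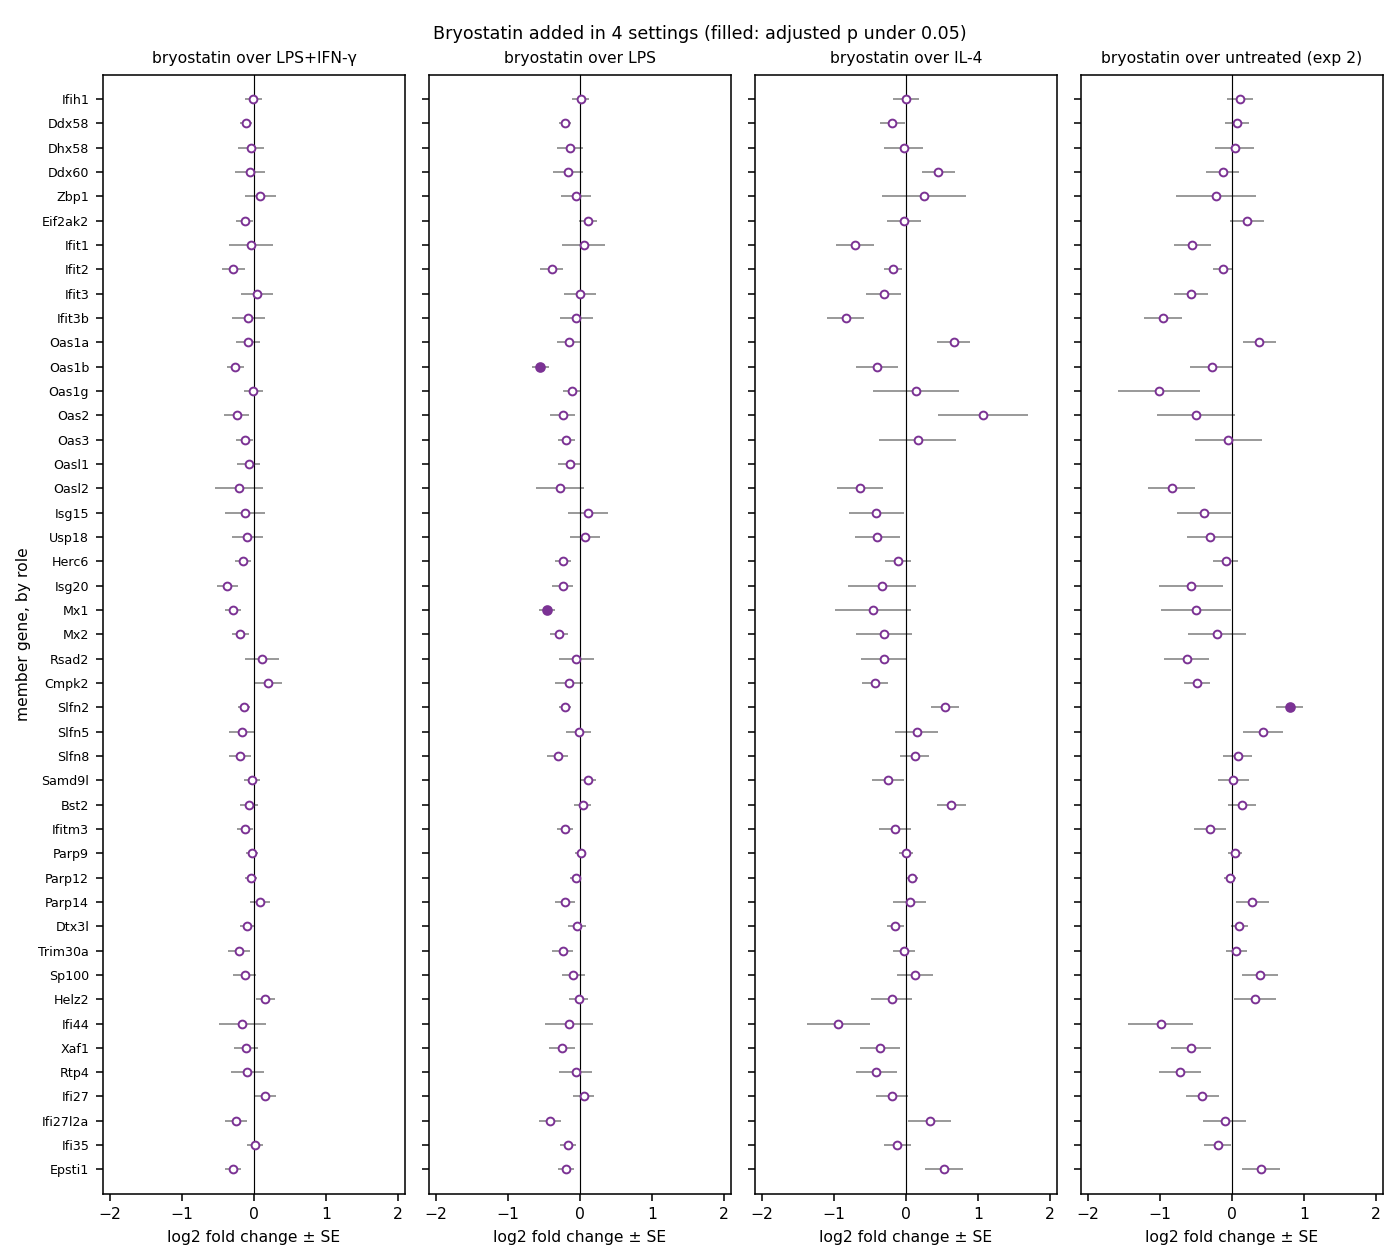
Log2 fold change (points) ± SE (bars) of each member on adding bryostatin to LPS and IFN-γ, to LPS, to IL-4 and to untreated glia of experiment 2, 3 libraries per group, with filled points for an adjusted p under 0.05. Filled points are Mx1 (-0.46) and Oas1b (-0.55) over LPS and Slfn2 (0.80) over untreated glia, and Oasl1 has no point in the panels of experiment 2.

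When bryostatin was added to LPS and IFN-γ, 0 of 45 members passed the test in edgeR, where 1.80% of all genes rose and 1.58% fell. DESeq2 also called 0, and 4 members had an unadjusted p under 0.05. The median was -0.09, the range -0.37 to 0.20, and 45 of 45 intervals lay within 2-fold. Isg20 had 61.6, 55.8 and 68.6 RPKM with LPS, IFN-γ and bryostatin, against 85.1, 79.9 and 75.3 RPKM with LPS and IFN-γ (-0.37 ± 0.15, adjusted p = 0.23), and it was the 1 member called without the untreated library labelled replicate 1 in the fit (adjusted p = 0.016). Mx1 had 73.0, 70.4 and 72.5 RPKM, against 81.8, 89.2 and 92.4 RPKM (-0.29 ± 0.11, adjusted p = 0.20), and Oas1b had 17.4, 18.7 and 17.4 RPKM, against 23.5, 21.2 and 19.3 RPKM (-0.26 ± 0.12, adjusted p = 0.29). For these 3 genes the bryostatin libraries were the lower ones without overlap.

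Whether bryostatin acted differently with and without IFN-γ was tested as a difference of the 2 changes. No member passed (0 of 45 in edgeR and in DESeq2, 0 at an unadjusted p under 0.05), where 0.0684% of all genes were higher and 0.0498% lower. The difference was 0.17 ± 0.16 for Mx1 and 0.29 ± 0.17 for Oas1b, and 41 of 45 intervals lay within 2-fold. The bryostatin changes in both settings had the same sign for 30 of 45 members (66.7%) and for 66.2% of all genes. Both changes were below 0 for 29 of the 45 members, against 5522 of 16073 genes. Among the further interferon-stimulated genes, Ms4a4c, Ifitm1 and Lgals9 fell with bryostatin over LPS and IFN-γ, by 1.03, 0.74 and 0.41.

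In experiment 2, which had no LPS, 1 member, Ifitm3, averaged over 100 RPKM in each group. Against untreated glia 1 of 44 tested members rose with bryostatin, where 2.11% of all 15604 genes rose and 1.51% fell. Oasl1 had 10 counts in each of the bryostatin, IL-4 and untreated groups and was not tested. Slfn2, the schlafen that keeps T cells quiescent, had 10.7, 17.8 and 13.9 RPKM with bryostatin, against 7.73, 8.60 and 7.96 RPKM in untreated glia (0.80 ± 0.19, adjusted p = 0.044). All bryostatin libraries lay above the untreated ones, but the call was kept in 7 of 14 fits, with adjusted p from 0.0014 to 0.27, and it was lost without bryostatin replicate 2 or 3 or any 1 untreated library. Ifit3b had 5.88, 6.00 and 4.96 RPKM with bryostatin, against 16.7, 7.91 and 7.84 RPKM in untreated glia (-0.96 ± 0.26, adjusted p = 0.073), where the untreated library labelled replicate 1 was the high one, and DESeq2 called it lower (adjusted p = 0.011). Summed microglia markers were 877 to 1449 RPKM with bryostatin and 923 to 1241 RPKM in untreated glia. Summed astrocyte markers were 1743 to 2288 RPKM with bryostatin and 2688 to 3708 RPKM in untreated glia (1 of 11 rose and 5 fell). The part of either list in the members' values was not tested. Without the 3 libraries of this experiment that stand apart, 1 member rose (Parp14) and 4 fell (Ifit3, Ifit3b, Ifi27 and Ifitm3), where 8.29% of all genes rose and 6.23% fell.

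With IL-4 against untreated glia, 0 of 44 members passed in edgeR and in DESeq2, where 0.500% of all genes rose and 0.0833% fell, and 5 members had an unadjusted p under 0.05. The largest difference was in Oas2, with 0.0105, 0.112 and 0.0749 RPKM with IL-4, against 0.390, 0.134 and 0.212 RPKM in untreated glia (-1.92 ± 0.61, adjusted p = 0.39), at levels of few counts. Bst2 had 50.5, 56.7 and 60.5 RPKM with IL-4, against 83.1, 58.5 and 62.2 RPKM, and these groups overlapped. Of 44 intervals, 30 lay within 2-fold. Outside the members, Irf4 rose by 2.80 ± 0.37 and Socs1 by 1.86 ± 0.23, and the LPS co-receptor gene Cd14 fell by 1.74 (SE 0.22).

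With bryostatin added to IL-4, 0 of 44 members passed in edgeR, where 2.70% of all genes rose and 1.42% fell, and 6 had an unadjusted p under 0.05. DESeq2 called 1 higher, Bst2, and 1 lower, Ifit3b. Bst2 had 76.8, 93.3 and 87.5 RPKM with IL-4 and bryostatin, against 50.5, 56.7 and 60.5 RPKM with IL-4 (0.63 ± 0.20, adjusted p = 0.12), and Ifit3b had 4.60, 5.04 and 4.84 RPKM, against 7.79, 9.86 and 8.50 RPKM (-0.84 ± 0.26, adjusted p = 0.11). The groups did not overlap for either gene. Of the 44 members, 5 were higher and 10 lower without overlap, where 19.0% and 17.6% of all genes tested were. Summed microglia markers were 1125 to 1456 RPKM with IL-4 and bryostatin and 791 to 1105 RPKM with IL-4. Summed astrocyte markers were 1723 to 2013 RPKM and 2445 to 2624 RPKM, and the part of either list in the members' values was not tested. With only the compared groups in the fit 3 members rose (Bst2, Oas1a and Slfn2) and 5 fell (Ifit1, Ifit3, Ifit3b, Oasl2 and Cmpk2), where 9.40% of all genes rose and 8.52% fell. All 4 IFIT values were below 0 in both bryostatin comparisons of experiment 2, from -0.96 to -0.13 over untreated glia and from -0.84 to -0.18 over IL-4. The difference between the bryostatin changes with and without IL-4 called 0 of 44 members in edgeR and in DESeq2, 0 at an unadjusted p under 0.05, where 0% of all genes were higher and 0% lower.

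**Figure D5:**
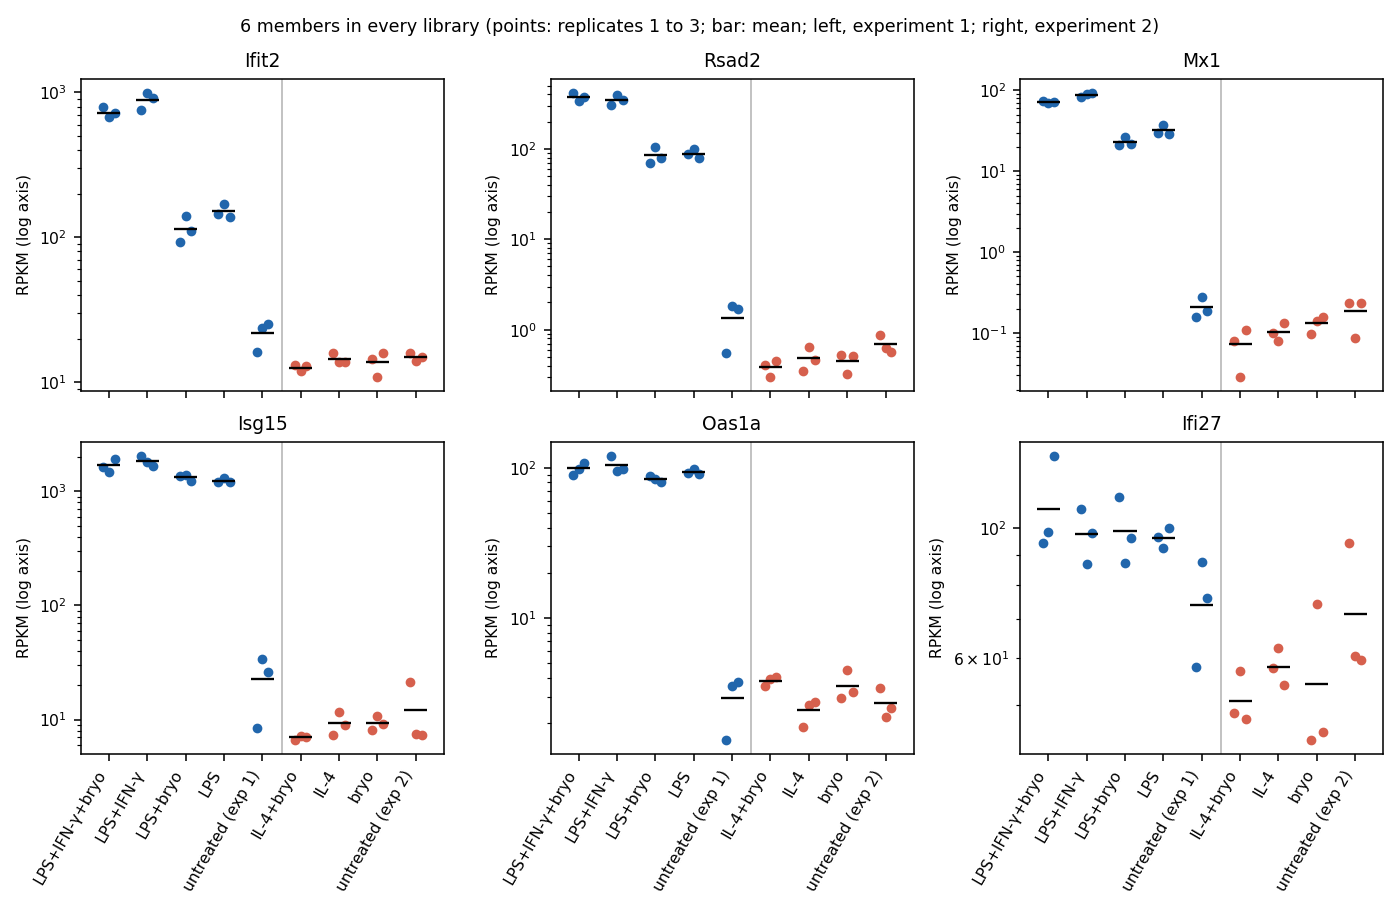
RPKM in each library (points, log axis) and group mean (bars) of Ifit2, Rsad2, Mx1, Isg15, Oas1a and Ifi27 in all 9 groups, 3 libraries each. Ifit2 and Rsad2 separate the libraries with IFN-γ from those with LPS alone, Isg15 spans 8.46 to 2050 RPKM in experiment 1, and Ifi27 stays between 43.6 and 133 RPKM throughout.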

How the data were processed

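Polyadenylated RNA was sequenced without strand information, per the labels' protocols. Per the submitters' processing notes, fastp, STAR, featureCounts and the mm10 build were used; their versions are not given in the sources used here. What the authors deposited and what was tested are counts of reads for each gene, with no normalization, beside gene lengths; their FPKM values were not used. Total counts ran from 17230058 to 28687281 per library.

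The members and gene lists were chosen with earlier results of these data known. Counts were tested with edgeR 4.0.16 in R 4.3.3 (with limma 3.58.1): genes were kept by filterByExpr, scaled by TMM, and fitted by the robust quasi-likelihood method with all groups of an experiment, the 2 experiments apart. A gene was called at a Benjamini-Hochberg adjusted p under 0.05 over all genes tested (16073 and 15604). Procedures were tested on simulated data. RPKM used TMM factors over all 27 libraries and the deposited lengths. Any member could be named by role, with every library given for the highest member of each role and for the 3 largest and 3 smallest changes among called members. No label says that replicates were separate cultures, so p-values measure the spread between libraries, which may be technical. Alternatives were DESeq2 1.42.0, its size factors, no filter, 1 fit of all libraries, only the compared groups, a replicate block, leaving out each library, and 2 fits added after seeing the data that leave out libraries that stand apart. Intervals on promoter shares cover counting error only.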

Additional observations from a re-analysis of the deposited data

How the results depend on the processing

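Over all alternatives 6192 member values were recomputed, of which 6062 kept their side of the threshold, 72 gained a call, 58 lost one and 0 called values reversed. With LPS, and with LPS and IFN-γ, over untreated glia the number of members that rose was 44 to 45, Ifi27 being the one lost. With LPS and IFN-γ over LPS, where 26 rose, the number was 34 with only the compared groups and 34 without the untreated library labelled replicate 1 in the fit, 27 in DESeq2, and 20 to 24 on leaving out 1 library. With LPS and bryostatin over LPS, where 2 fell, it was 14 with only the compared groups, 6 without that untreated library, 1 with all 27 libraries in 1 fit, and 0 to 2 on leaving out 1 library. Counts over all genes moved in the same fits, from 538 higher and 570 lower to 1637 and 1717 with only the compared groups. With LPS, IFN-γ and bryostatin over LPS and IFN-γ, 1 fell without that untreated library. With bryostatin over untreated glia, 0 rose with only the compared groups and 0 to 1 on leaving out 1 library, and 1 fell in DESeq2, 1 with all 27 libraries, 0 to 2 on leaving out 1 library, and 4 without the 3 libraries of experiment 2 that stand apart (untreated replicate 1, bryostatin replicate 2, and IL-4 and bryostatin replicate 2). With IL-4 over untreated glia, 1 fell without those 3 (Slfn5). With IL-4 and bryostatin over IL-4, 2 rose with all 27 libraries, 1 in DESeq2, 3 with only the compared groups and 3 without those 3, and 1 fell in DESeq2, 5 with only the compared groups and 7 without those 3. The causes were not tested. Where the share of all genes called in a fit is not given, the number of members called in it is no result about the members. The ISRE core was found in 23 members when shortened by 1 base and in 13 in the 250 bases before the start alone. Replicate numbers did not pair the libraries (median correlation of same-numbered deviations 0.01 in experiment 1 and 0.03 in experiment 2); with the replicate as a block, Ifi27 with LPS over untreated glia was 0.40 (adjusted p = 0.055), and no other member's call changed. With 3 libraries a group, and few counts of many members in experiment 2, changes under 2-fold were often not detectable there. For bryostatin over untreated glia only 25 of 44 intervals lay within 2-fold. The others reached beyond it, with bounds as low as -2.25 and as high as 1.22 on the log2 scale.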
